A study of Schizosaccharomyces pombe with 2 samples.

Results

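The genes described here lie near the right end of chromosome I of fission yeast, Schizosaccharomyces pombe, on 5 neighbouring stretches whose systematic names begin with SPAC1039, SPAC922, SPAC869, SPAC186 and SPAC750. They were chosen by name, with earlier results of these data known, and they make up 38 of the 5006 gene probes on the arrays. The choice leaves out 6 genes that lie among them: SPAC1039.01, isp5, cat1, put4, sul2 and pdc102. The probe that the files name SPAC922.08c is that of cat1 in the reference table and was left out with it. Genes are taken in the order of the reference table, from the chromosome arm outward, and the last one, SPAC750.08c, is also the last protein-coding gene of the chromosome there.

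Ssn6 works within the Ssn6-Tup11/12 corepressor, a complex that DNA-binding proteins bring to promoters, where it lowers transcription. Subtelomeres, the regions next to the chromosome ends, are known in fission yeast for heterochromatin and for gene families with related copies at several ends. A spotted probe can take up signal from such a copy. The probes' sequences were not analysed here, so shared signal was not tested.

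On each of 2 spotted cDNA arrays, total RNA of both cultures was hybridised in different dyes. One culture was a wild-type strain with the plasmid pDUAL-Ssn6, which expresses Ssn6, and the other a wild-type strain with the empty plasmid pDUAL. Both grew at 30 °C in minimal medium lacking uracil, which selects for the plasmid, and were in logarithmic growth; the labels give Cy3 for the Ssn6 culture on array 1 and Cy5 for it on array 2. The design text names 2 RNA preparations without tying them to arrays, so the spread behind the p-values is that of 2 arrays and may be technical only.

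In the files the channels are called A and B, and nothing ties either to a dye or culture. The ssn6 probe had mean intensities of 278587 in A and 1979660 in B on array 1, and of 388643 and 3342690 on array 2. Its log2 ratio of B over A after loess was 1.91 and 2.18, a mean of 2.04 ± 0.19 (SD, n = 2 arrays; limma, adjusted p = 6.69e-05). Neither of its spots on array 1 had flag C in both channels, so it had no value with flag C spots only. On the basis of this 1 probe, channel B is likely the Ssn6 culture on both arrays. The labelled dye swap would give opposite signs if each channel held 1 dye throughout, but the arrays ran the same way (Pearson r = 0.805 and Spearman rho = 0.698 across 4903 genes, which are not independent replicates). Directions are therefore given by channel, and dye bias may not cancel in the mean. With the sign of array 1 turned, limma called 0 of 4903 genes at adjusted p 0.05, and 6 had an unadjusted p under 0.05. Ratios that ran the same way cancel in that mean, so this count only restates the correlation.

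Of the 38 genes, 30 were tested. The other 8 were dim, with a mean signal under the 95th percentile of negative control spots in both channels of at least 1 array. Of the 30, 5 were higher in channel B, 11 were lower, and 14 did not pass at adjusted p 0.05 in limma. The 16 called are 53.3% of those tested, against 27.9% of all 4903 genes tested (11.3% higher and 16.6% lower). By a second rule, at least 1.5-fold in 1 direction on both arrays, 5 were higher and 9 lower, against 17.7% of all genes in either direction (6.2% higher and 11.5% lower). The share of higher genes among all genes that met this rule was 35%, and it was 46.6% with median centring and 48.3% in the authors' deposited values.

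The median log2 ratio of the 30 was -0.21, with -0.31 on array 1 and -0.25 on array 2, beside 0.01 over all genes tested. These counts and medians describe the genes bright enough to test and carry no test of the group. They depend on the limit for dim probes, which was set after the results of a stricter one had been seen. Under that stricter limit, taken only over control spots that gave a signal, 12 of the 38 genes were tested and 9 called, 4 higher and 5 lower, against 43.4% of 2062 genes. A probe needed to lie above it in only 1 channel of each array. On array 1, SPAC186.06 and gdt1 did so only in A, and mmf2 and SPAC750.01 only in B. Such genes entered through the channel where they were high, so the counts under this limit lend no support.

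**Figure D1:**
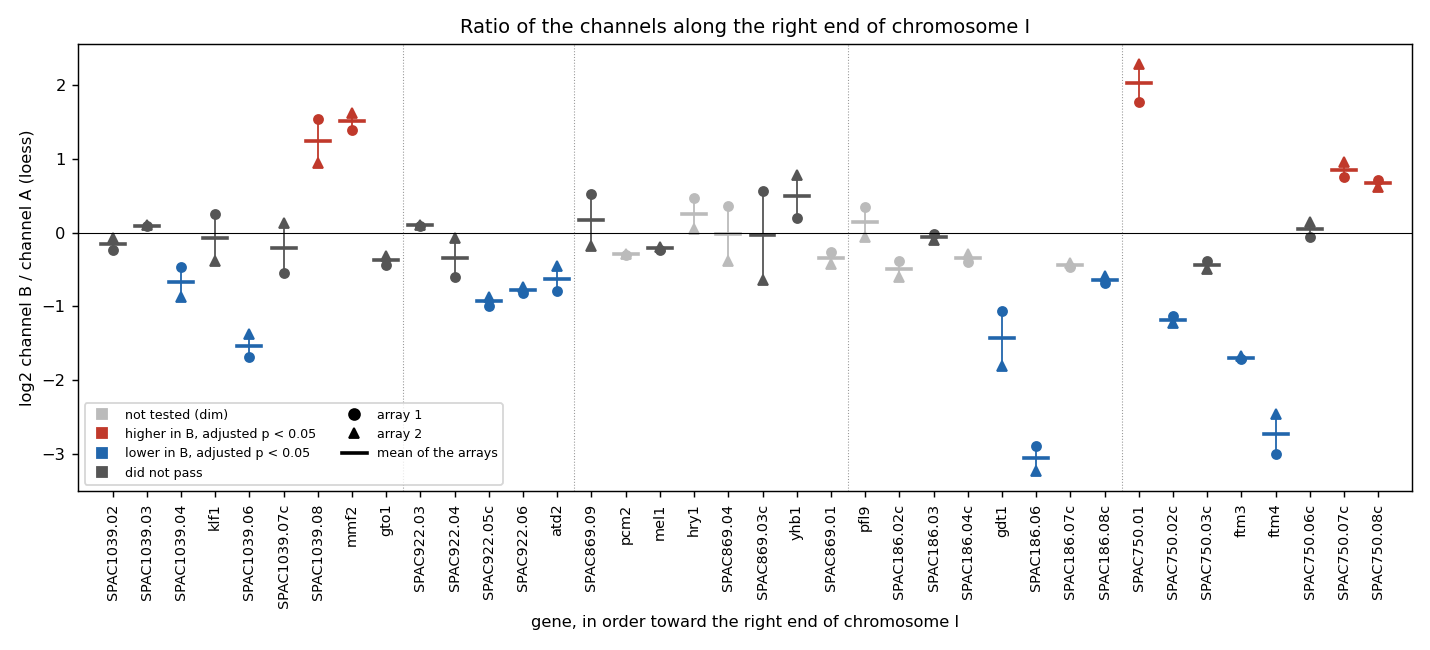
Loess-normalized log2 ratio, B over A (vertical axis), for the 38 genes in chromosome order (horizontal axis), with circles for array 1, triangles for array 2 and a short bar for their mean; dotted lines part the 5 stretches. The lowest mean is that of SPAC186.06 (-3.06) and the highest that of SPAC750.01 (2.03) among these 38, and none of the 4 chosen and tested genes of SPAC869 passed.

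Of the chosen genes, those called were 4 of 9 tested in SPAC1039, 3 of 5 in SPAC922, 0 of 4 in SPAC869, 3 of 4 in SPAC186 and 6 of 8 in SPAC750. The share over all genes tested was 27.9%, and each of these counts rests on few genes. The genes of SPAC869 that the choice leaves out, cat1, put4 and sul2, were all called. The 0 of SPAC869 therefore holds for its chosen genes only. The median size of the log2 ratio, whatever its sign, was 0.37, 0.62, 0.19, 1.04 and 1.02 in the same order. The dim genes were 4 of the 8 in SPAC869 and 4 of the 8 in SPAC186.

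The innermost stretch, SPAC1039, held called genes of both directions. It opens with SPAC1039.01, outside the choice, at 0.46 ± 0.21 (adjusted p = 0.0716). SPAC1039.02 (-0.15) and SPAC1039.03 (0.10) did not pass. SPAC1039.04 was lower in channel B, with -0.47 on array 1, which is under 1.5-fold, and -0.87 on array 2, a mean of -0.67 ± 0.29 (adjusted p = 0.0221). Its spots on array 1 disagreed in sign, at -1.32 and 0.39, while those on array 2 were -0.87 and -0.88. With the spots of blocks 1 to 24 only the mean was -1.10, and with those of blocks 25 to 48 only it was -0.24, which did not pass (adjusted p = 0.663).

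The next gene, klf1, encodes a zinc-finger transcription factor needed for long survival of quiescent cells. It had 0.25 on array 1 and -0.39 on array 2 and did not pass. SPAC1039.06 measured 348390 and 313744 in channel A against 127656 and 119423 in B on array 1, and 208956 and 191512 against 112092 and 82989 on array 2. Every spot was brighter in A and the channels did not overlap. The ratio was -1.69 and -1.37, a mean of -1.53 ± 0.23, or 2.89-fold higher in A (adjusted p = 0.000327). SPAC1039.07c, whose annotated span overlaps that of SPAC1039.06 in the reference table, had -0.55 and 0.13 and did not pass. Signal of overlapping genes cannot be told apart, since the sources used here do not say whether the probes or the labelling keep strand.

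SPAC1039.08 and mmf2, a gene of the YjgF/RidA family, were higher in channel B. SPAC1039.08 measured 25675 and 22102 in A against 103313 and 55618 in B on array 1, and 18786 and 30237 against 48118 and 57329 on array 2. Its ratio was 1.54 and 0.94, a mean of 1.24 ± 0.42 (adjusted p = 0.00179). With the spots of blocks 25 to 48 only it had 0.96 and did not pass (adjusted p = 0.0549). The spots of mmf2 measured 91497 and 49308 in A against 192465 and 200440 in B on array 1, and 41916 and 39112 against 168514 and 131148 on array 2. Its ratio was 1.39 and 1.62, a mean of 1.51 ± 0.16, or 2.85-fold (adjusted p = 0.000318). In neither gene did the channels overlap.

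The amino acid permease gene isp5, which lies between them and outside the choice, had 1.33 ± 0.33 (adjusted p = 0.000966), so a run of 3 neighbours was higher in B. The annotated span of gto1, next outward, overlaps that of mmf2. It had -0.44 on array 1, where only 1 spot gave a signal, and -0.31 on array 2, and did not pass (adjusted p = 0.118). Under loess fitted within each print-tip block gto1 had -0.49 and passed (adjusted p = 0.0443).

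In the SPAC922 stretch, SPAC922.03 had 0.10 ± 0.01 and SPAC922.04 had -0.61 on array 1 and -0.07 on array 2, and neither passed. Before normalization all 4 spots of SPAC922.04 were brighter in channel B. The 3 genes that follow were all lower in channel B after loess. SPAC922.05c measured 57754 and 68627 in A against 34219 and 34631 in B on array 1, and 50396 and 37264 against 31629 and 23273 on array 2. Its ratio was -0.99 and -0.87, a mean of -0.93 ± 0.09 (adjusted p = 0.00349). The channels did not overlap.

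SPAC922.06 measured 185876 and 167984 in A against 124534 and 104346 in B on array 1, and 95937 and 130273 against 78532 and 84452 on array 2. Within each array the channels did not overlap. Its ratio was -0.82 and -0.73, a mean of -0.78 ± 0.06 (adjusted p = 0.00818). The aldehyde dehydrogenase gene atd2 had -0.80 on array 1 and -0.45 on array 2, which is under 1.5-fold, a mean of -0.62 ± 0.25 (adjusted p = 0.0278). It did not pass with the spots of blocks 1 to 24 only (-0.47, adjusted p = 0.157) or of blocks 25 to 48 only (-0.77, adjusted p = 0.0586).

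Next outward and outside the choice, the cationic amino acid transporter gene cat1 was also lower, at -1.16 ± 0.01 (adjusted p = 0.0011). The direction turned at its outer neighbour, the proline permease gene put4, also outside the choice, at 2.22 ± 0.03 (adjusted p = 3.43e-05).

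Among the chosen genes of the SPAC869 stretch none was called, and none of the 4 tested reached 1.5-fold in 1 direction on both arrays. In the same limma fit yhb1 alone of the 4 tested had an unadjusted p under 0.05. The arrays had opposite signs for SPAC869.09 (0.52 and -0.19) and SPAC869.03c (0.57 and -0.64). The alpha-galactosidase gene mel1 had -0.23 and -0.19. For yhb1, which encodes a flavohemoprotein that detoxifies nitric oxide, the ratio was 0.20 and 0.79, a mean of 0.49 ± 0.42 (adjusted p = 0.0862). With print-tip loess yhb1 had 0.73 and passed (adjusted p = 0.0162). On array 2, yhb1 in channel A and SPAC869.09 in channel B were not well above background.

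The dim genes of the stretch had ratios from -0.34 to 0.25. They were pcm2, a protein-L-isoaspartate methyltransferase gene, hry1, SPAC869.04 and SPAC869.01. Between hry1 and SPAC869.04 lies the sulfate transporter gene sul2, outside the choice, at 2.12 ± 0.17 (adjusted p = 5.38e-05). From cat1 outward to SPAC186.04c, put4 and sul2 were the only genes with a probe that passed higher in channel B, and none of the genes chosen there passed in either direction.

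**Figure D2:**
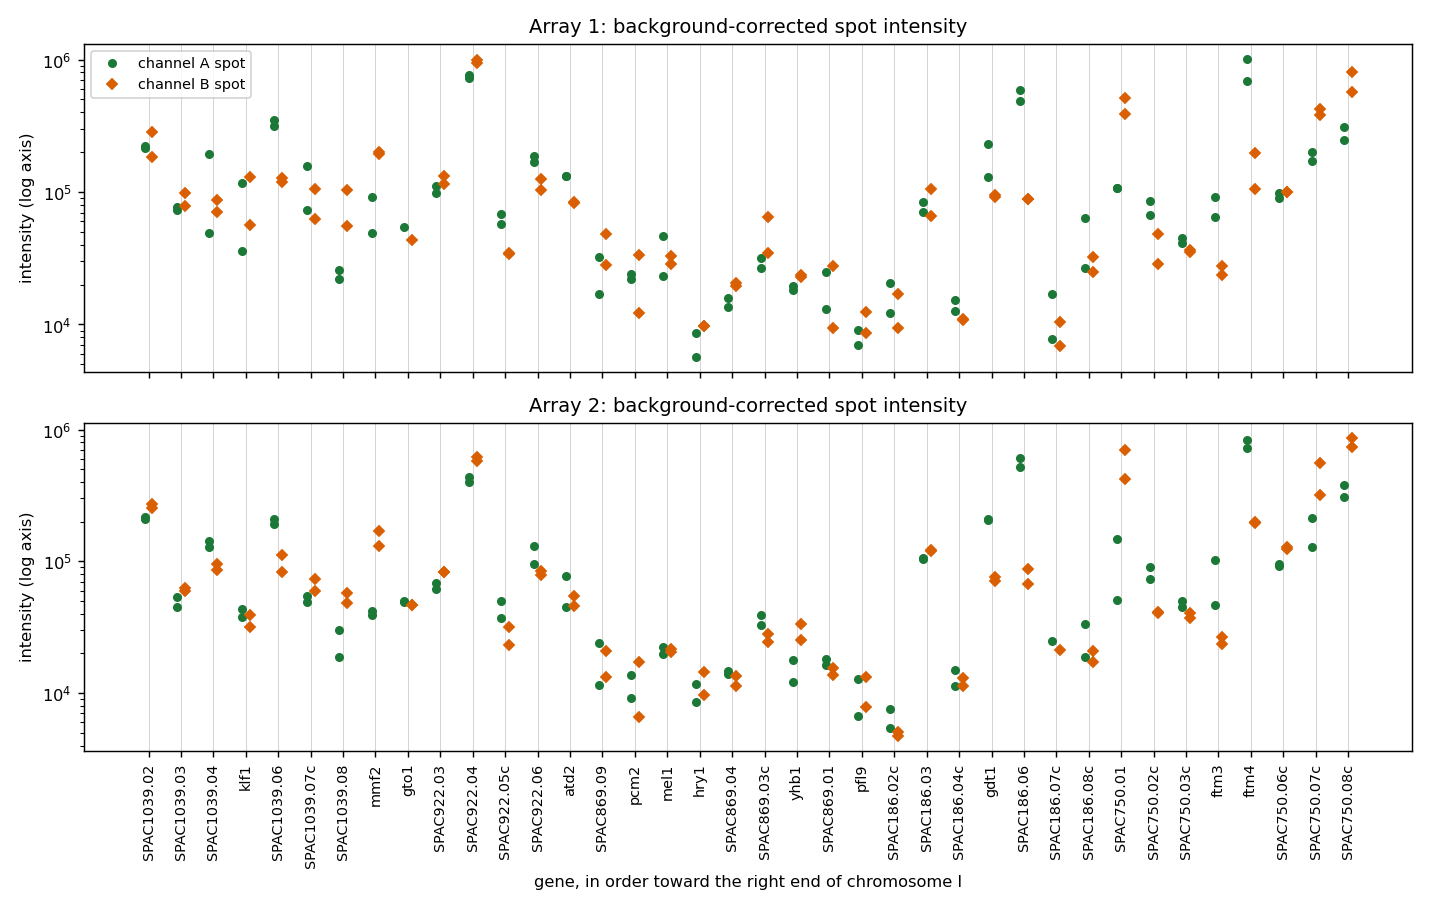
Background-corrected intensity of each spot (vertical axis, logarithmic) for the 38 genes in chromosome order (horizontal axis), with circles for channel A and diamonds for channel B, on array 1 (top) and array 2 (bottom), before normalization. Channel A lies above channel B at SPAC186.06 and ftm4, and channel B above channel A at SPAC750.01.

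The SPAC186 stretch opens with dim genes. The cell-surface adhesin gene pfl9 had 0.15, SPAC186.02c -0.49 and SPAC186.04c -0.34, all untested, and SPAC186.03 was tested and did not pass (-0.06). The gene gdt1, which shares its name with a Golgi ion transporter of budding yeast, was lower in channel B. It measured 231126 and 129214 in A against 94923 and 91893 in B on array 1, and 207977 and 207224 against 70379 and 75732 on array 2. Every spot was brighter in A, the second of array 1 least. The ratio was -1.06 and -1.81, a mean of -1.43 ± 0.53 (adjusted p = 0.0013), the largest SD among the 16 called genes. With the spots of blocks 25 to 48 only, gdt1 had -1.20 and did not pass (adjusted p = 0.0875).

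SPAC186.06 had the lowest ratio of the region. It measured 593405 and 486524 in channel A against 88778 and 88726 in B on array 1, and 604243 and 517152 against 87969 and 66839 on array 2. The spots were close to one another within each channel and far apart between the channels. The ratio was -2.89 and -3.23, a mean of -3.06 ± 0.24, or 8.32-fold higher in A (adjusted p = 1.09e-05). Its outer neighbour SPAC186.07c was dim on array 1 and not tested (-0.44).

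SPAC186.08c measured 26895 and 64048 in A against 32249 and 24995 in B on array 1, and 33241 and 18846 against 20974 and 17074 on array 2. Of its 4 spots, 1 was brighter in B. The ratio was -0.68 and -0.59, a mean of -0.64 ± 0.07 (adjusted p = 0.0196), but the spots of array 1 had 0.12 and -1.49, and the second of them lacked flag C in both channels. With flag C spots only the mean was -0.24 (adjusted p = 0.42), with print-tip loess it was -0.48 (adjusted p = 0.0506), and neither passed. The pyruvate decarboxylase gene pdc102, next outward and outside the choice, had 1.08 ± 0.42 (adjusted p = 0.00364).

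The outermost stretch, SPAC750, held called genes of both directions in runs. SPAC750.01 measured 107079 and 106320 in channel A against 384869 and 513343 in B on array 1, and 146758 and 50649 against 700408 and 421544 on array 2. Every spot was brighter in B and the channels did not overlap. The ratio was 1.77 and 2.28, a mean of 2.03 ± 0.36, or 4.07-fold higher in B (adjusted p = 0.000117), the highest of the 38 chosen genes and below put4 and sul2.

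SPAC750.02c went the other way. It measured 85192 and 66481 in A against 48394 and 28779 in B on array 1, and 73778 and 90445 against 41075 and 40395 on array 2. The channels did not overlap, and the ratio was -1.13 and -1.23, a mean of -1.18 ± 0.07 (adjusted p = 0.00102). SPAC750.03c had -0.44 ± 0.07 and did not pass (adjusted p = 0.0761). Median centring took SPAC750.03c to -0.50, which passed (adjusted p = 0.0455).

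The genes ftm3 and ftm4, which share a family name, were both lower in channel B. The spots of ftm3 measured 64551 and 91291 in A against 27655 and 23461 in B on array 1, and 102321 and 46828 against 26600 and 23444 on array 2. Its ratio was -1.71 and -1.67, a mean of -1.69 ± 0.03 (adjusted p = 0.000151), the smallest SD among the 16. Its spots spread more than its arrays, from -1.35 to -2.08 on array 1 and from -1.19 to -2.16 on array 2. The spots of ftm4 measured 1011436 and 691261 in A against 198632 and 105660 in B on array 1, and 722953 and 834658 against 198125 and 194443 on array 2. Its ratio was -3.00 and -2.46, a mean of -2.73 ± 0.38, or 6.63-fold higher in A (adjusted p = 2.46e-05). In neither gene did the channels overlap.

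A total of 5 genes of the ftm name had a probe, and the other 3 were looked up after the values of ftm3 and ftm4 had been seen. They lie among the outermost genes elsewhere, ftm1 and ftm2 at the left end of chromosome I and ftm7 at the right end of chromosome II. The ratio of ftm1 was -3.08 on array 1 and -2.58 on array 2 (adjusted p = 2.00e-05). The probes of ftm2 and ftm7 were not well above background in channel B on either array. Both were tested only through channel A, where they were high, so their p-values lend no support to the values of ftm3 and ftm4. With the control percentile in place of the dim channel, which gives a bound and not a measured fold, A was at least 5.89-fold higher for ftm2 (measured mean -2.68, adjusted p = 1.46e-05). For ftm7 it was at least 2.67-fold higher (measured mean -2.87, adjusted p = 4.35e-05). These values are on the loess-normalized scale and use the percentile with control spots without signal taken as 0. Over control spots with signal, the percentile was 107370 in B on array 1. That is above the signal in A of ftm2 (92883.5) and ftm7 (44244), so no minimum follows from it. Whether the 5 probes measured separate transcripts was not tested.

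SPAC750.06c did not pass (-0.05 and 0.14), and the outermost pair was higher in channel B. SPAC750.07c measured 172647 and 200196 in A against 379909 and 425855 in B on array 1, and 211946 and 128766 against 558933 and 318203 on array 2. Its ratio was 0.76 and 0.96, a mean of 0.86 ± 0.14 (adjusted p = 0.00556). SPAC750.08c measured 311659 and 247847 in A against 806648 and 566898 in B on array 1, and 309402 and 376339 against 731557 and 869618 on array 2. Its ratio was 0.71 and 0.62, a mean of 0.67 ± 0.06 (adjusted p = 0.016). In neither gene did the channels overlap. With the spots of blocks 25 to 48 only neither passed (0.83, adjusted p = 0.0563, and 0.64, adjusted p = 0.0889), and with median centring SPAC750.08c had 1.02.

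**Figure D3:**
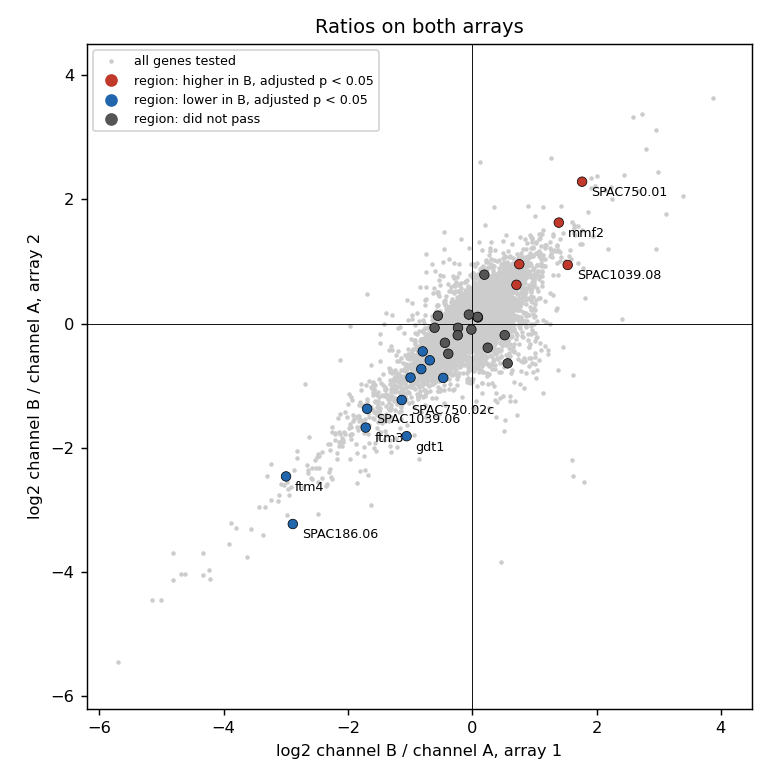
Log2 ratio, B over A, on array 1 (horizontal axis) against array 2 (vertical axis) for all 4903 genes tested (grey) and the 30 tested genes of the region (larger points, coloured by call). The 16 called genes have the same sign on both arrays, and SPAC186.06 and ftm4 lie farthest toward the lower left among them.

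The arrays gave the same sign for 25 of the 30 tested genes, while 24.2% of all genes tested had opposite signs. The 5 with opposite signs were klf1, SPAC1039.07c, SPAC869.09, SPAC869.03c and SPAC750.06c. Across the 30 the arrays correlated with Pearson r = 0.921 and Spearman rho = 0.843, a description over genes that share the same 2 arrays. All measured spots lay on the side of the mean for 14 of the 16 called genes, the exceptions being SPAC1039.04 and SPAC186.08c. None of the 38 had a saturated spot. No called gene was under the control percentile in any channel, with control spots without signal taken as 0. Over control spots with signal, the percentile was far higher, at 156735 in A and 107370 in B on array 1. On array 2 it was 33636.2 and 37534.5. Even SPAC186.06, at a mean of 88752 in B on array 1, lay under that stricter limit in B, and was tested there through channel A.

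The region was set beside the 38 outermost protein-coding genes at each of 3 other chromosome ends and the 38 next inward on chromosome I. At the left end of chromosome I, 16 of 28 tested genes were called, 7 higher and 9 lower (57.1%). At the left end of chromosome II, where only 13 of the 38 genes had a matched probe, 6 of 12 were called, 1 higher and 5 lower (50%). At the right end of chromosome II, 13 of 29 were called, 1 higher and 12 lower (44.8%). The 53.3% of the chosen genes lay within the range of these ends, but the sets are unlike, since no gene was left out at the other ends. Calls at those ends also include ftm2 and ftm7, which were tested only through channel A. No called gene among those chosen was dim in a channel. With the 6 genes left out put back, 21 of 36 were called, 9 higher and 12 lower (58.3%), above the highest of them. Next inward on chromosome I, 6 of 34 were called, 3 higher and 3 lower (17.6%).

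The median size of the log2 ratio was 0.63 over the chosen genes, 0.67 with the 6 left out put back, and 0.74, 1.02 and 0.49 at the other ends in the same order. It was 0.27 next inward and 0.32 over all genes tested. These are descriptions without a test, and related copies at several ends may count the same signal more than once.

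**Figure D4:**
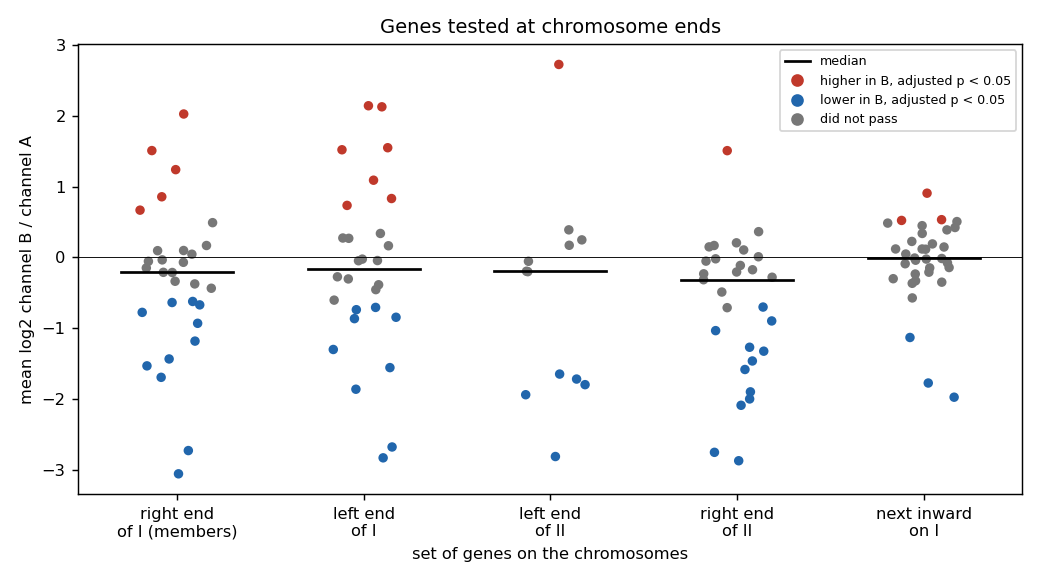
Mean log2 ratio, B over A (vertical axis), of each chosen and tested gene at the right end of chromosome I and each tested gene at 3 other chromosome ends and next inward on chromosome I (horizontal axis), coloured by call, with the median as a line. Ratios reach from -3.06 to 2.03 among the chosen genes, without the 6 left out (up to 2.22), and from -1.97 to 0.91 next inward.

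The called genes kept their direction under each normalization and choice of spots tried, and 9 of the 16 changed sign only when the sign of array 1 was turned. With both arrays in the mean, SPAC186.06 ranged from -3.10 to -2.96 under the others, SPAC750.01 from 1.71 to 2.35 and ftm4 from -2.82 to -2.39. In the authors' deposited values, each from a single spot on an array, limma passed 0 of 30 (15 had an unadjusted p under 0.05) and 0 of 4860 genes (1790). By the rule of 1.5-fold on both arrays, 5 of the 30 were higher and 8 lower in the authors' values. Over all genes it was 977 of 4860, with 472 higher and 505 lower.

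**Figure D5:**
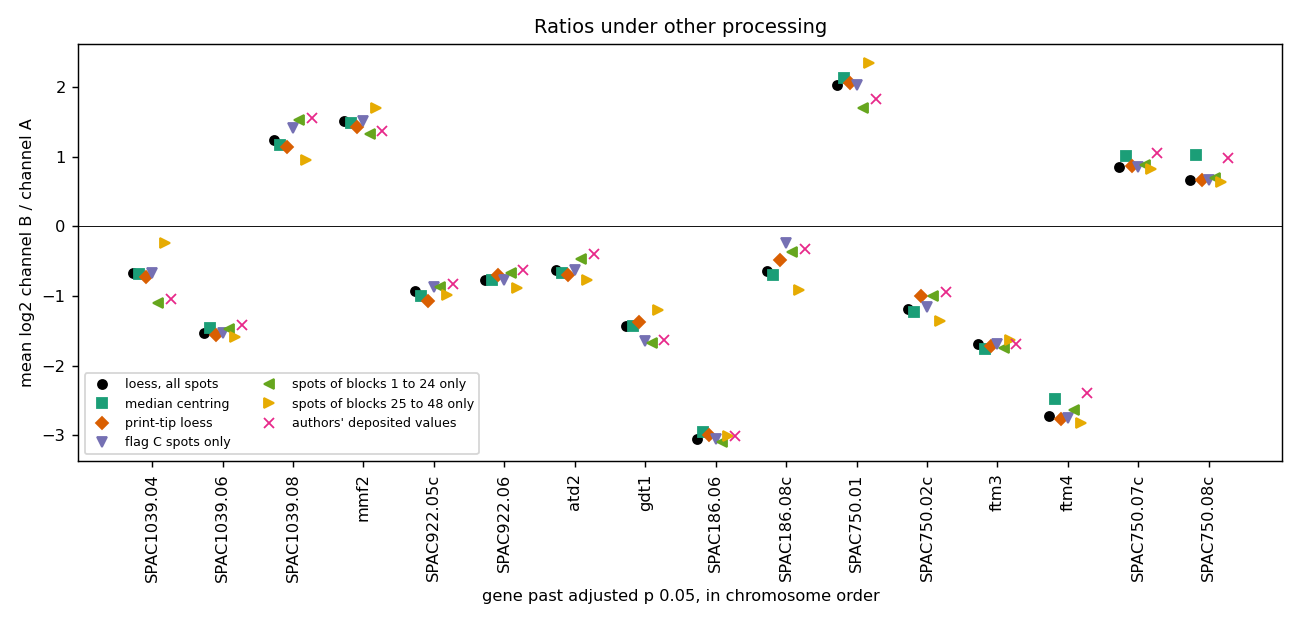
Mean log2 ratio, B over A (vertical axis), of the 16 called genes in chromosome order (horizontal axis), after loess with all spots and under 6 other treatments of the spots or values. Points of SPAC186.06 lie close together, from -3.10 to -2.96, while those of SPAC1039.04 spread from -1.10 to -0.24.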

How the data were processed

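The members and lists were chosen with earlier results of these data known. The deposited files give, for every spot, an intensity in channels A and B with the background removed, per the file headers. Further deposited columns are a ratio of the channels, a saturation fraction, a pixel area and letter flags. The sources used here name neither the scanner software nor what the flags mean. The values the authors deposited beside them are log10 ratios after lowess (the design text names the method; the scale was read from the values). Set against the scanner files, its first part followed log10 of B over A (r = 0.913 and 0.939 on the arrays). From position 5761 of 11520 it did not (r = 0.0355 and 0.0566), and that part was not used. A value of -2.00 was a floor.

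Each array had 11520 spots in 48 blocks, 10016 of them gene spots. The median gene spot with signal had an intensity of 77032 in A and 82901 in B on array 1; on array 2 these were 76938 and 90289. The number of arrays limits the precision, with 1 residual and 7.51 prior degrees of freedom. An offset of 50 was added, and loess (span 0.3, non-gene spots at weight 0) was fitted to the log2 ratio of B over A, array by array. A probe's spots were averaged.

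A probe was tested unless its mean signal in both channels of either array lay under the 95th percentile of 694 negative control spots, those without signal taken as 0. No limit had been named in advance. A first run took the percentile over only the 157 and 108 control spots with signal on the arrays, and the limit was changed after its results were seen; both are reported. limma 3.58.1 (R 4.3.3, data.table package, version 1.17.8) tested the mean of 2 arrays against 0, two-sided, with Benjamini-Hochberg adjustment over 4903 genes. On simulated ratios for these 4903 genes it called 100 of 100 set to a log2 ratio of size 2, 100 of 100 of size 3, and 7 unchanged genes. The simulated noise was normal and independent between the arrays. Sizes under 2, which most called genes of the region had, were not simulated, so their recovery is not known. Of 5006 probe names, 4790 were matched to the ASM294v3 table, which gave names and gene order only. By rule all members were taken in order, with spot values for those past adjusted p 0.05 and 1.5-fold on both arrays. Sequence likeness and promoter motifs were not analysed here. Alternatives were normexp, median centring, print-tip loess, no filter on dim probes, no saturated spots, the authors' values, a turned sign of array 1 and each array alone. Spots with flag C, each set of blocks and the first limit for dim probes were added after seeing the data.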

Additional observations from a re-analysis of the deposited data

How the results depend on the processing

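With the sign of array 1 turned, limma called 0 members and 0 of all genes (0 and 6 at an unadjusted p under 0.05), 0 members and 31 genes were 1.5-fold on both arrays, ssn6 had 0.13, and the members' median was 0.033. In that setting 9 genes changed sign: SPAC1039.06 (0.16), SPAC1039.08 (-0.30), SPAC922.05c (0.062), SPAC922.06 (0.044), atd2 (0.17), SPAC186.08c (0.046), ftm3 (0.020), ftm4 (0.27) and SPAC750.08c (-0.044). In the authors' values limma called 0 members and 0 of all genes (15 and 1790 at an unadjusted p under 0.05), and ssn6 had 2.29 (adjusted p = 0.0755). The limit for dim probes from control spots with signal, which was replaced after its results were seen, left 12 members and 2062 genes to test. Of these, 9 members and 894 genes were called, and the 1.5-fold rule gave 9 members and 592 genes. That limit tests fewer genes by construction, and some of them entered only through the channel where they were high. Spots of blocks 25 to 48 only gave 9 of 29 members and 499 of 4736 genes (10.5%) called. The members' median was -0.27 with print-tip loess, -0.33 with spots of blocks 1 to 24 only, and -0.31 to -0.25 with 1 array alone. On 1 array alone, 1389 to 1428 genes and 16 to 17 members were past 1.5-fold; a single array leaves no test. In all other alternatives 14 to 17 members were called, of 30 tested, or of 38 without the filter on dim probes. The share of all genes called in them ran from 22.3% (spots of blocks 1 to 24 only) to 32.3% (median centring). The changes with the sign of array 1 turned follow from the arithmetic, since ratios that ran the same way cancel in the mean. The cause of the other changes was not tested. ssn6 had no value with flag C spots only. The ratio within an array pairs the cultures, so every test here is paired by array.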
